A study of Mus musculus with 12 samples.

Results

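Genes that mark the glia and neurons of the brain and spinal cord were followed across 12 RNA-seq libraries of mouse trigeminal nerve. The set held 10 genes of the 47480 gene symbols counted. Mog, Mobp, Opalin and Hapln2 mark mature oligodendrocytes, Olig1 and Olig2 mark the oligodendrocyte lineage, Aqp4, Slc1a2 and Aldh1l1 mark astrocytes, and Slc12a5 marks central neurons. The first 9 were taken for their known cell type, with earlier results of these libraries in view. Slc12a5 was chosen by its measured values, because 1 normal nerve library held far more of it than the others, so its levels are given as a description with no test.

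Normal nerve was the label of 6 samples, which came from mice with the genotype Nf1 flox/flox PostnCre-, and plexiform neurofibroma was that of 6 samples from Nf1 flox/flox PostnCre+ mice. Both groups therefore carried the floxed Nf1 alleles and differed in Cre. Cre was driven by the periostin promoter, which is known to act in the Schwann cell lineage, so the other cells of the tumour can keep an intact Nf1. A plexiform neurofibroma is a benign tumour of nerve made up of Schwann cells, fibroblasts, mast cells and other cells. The labels used here give no age, sex, treatment or dissection detail and do not say that the samples came from separate animals, so p-values measure only the spread between these samples. Libraries are written NN1 to NN6 for normal nerve and PNF1 to PNF6 for plexiform neurofibroma, and the number only names a library.

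The trigeminal nerve joins the brainstem at a root where myelin changes hands. Oligodendrocytes wrap the axons on the central side of this transition zone, with astrocytes between them, and Schwann cells wrap them on the peripheral side. Central and peripheral myelin share some proteins, such as myelin basic protein, and differ in others. MOG and MOBP belong to central myelin. A piece of nerve cut close to the brainstem can therefore carry central glia, and a piece cut further out can carry few or none. In bulk RNA, fewer cells of a type and less RNA per cell cannot be told apart.

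Total counts ran from 14160025 to 19989351 per library, so 3 counts, the limit that a count of 0 allows, corresponded to 0.152 to 0.214 CPM (counts scaled to a common library size). Library sizes were scaled with edgeR's TMM factors. Nf1, the targeted gene, had a median of 141 CPM in normal nerve (85.5 to 173) and 86.6 CPM in plexiform neurofibroma (69.6 to 93.1). The groups overlapped, with a log2 fold change of -0.65 ± 0.16 (SE, n = 6 against 6, edgeR adjusted p = 0.0179). Sensory neuron and Schwann cell transcripts were counted in every library. Summed CPM of 22 sensory neuron genes was 11778 to 22048, and that of 14 Schwann cell and peripheral myelin genes was 2816 to 16584. The labels do not say whether the samples held ganglion with its neuron cell bodies and satellite glia. The source of these transcripts was not tested. NN6 stood apart from the other normal nerve libraries in most of the genes described here. PNF1 stood apart from the other tumour libraries in Mog, Mobp, Opalin, Olig1 and Olig2. Group results without NN6 are given for the 8 tested genes of the set. Results without both libraries are given for some genes only. Among the genes of other lists called below, only Grin1 lost its call without both.

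The letters before the start sites of the mature oligodendrocyte genes Mog, Mobp, Opalin and Hapln2 are shown for comparison. Mog, Mobp and Hapln2 rose and fell together from library to library, while Opalin was counted in few libraries. Whether these letters bear on the levels was not tested. The windows are from RefSeq on GRCm38.p6 and were cut to the bases before any annotated exon. They lie at chr17:37023399-37023648 on the minus strand for Mog, chr9:120149492-120149706 on the plus strand for Mobp, chr19:41077114-41077363 on the minus strand for Opalin and chr3:88027584-88027761 on the minus strand for Hapln2. Each is printed 5′ to 3′ on its gene's strand, and capitals mark ACAAAG or ACAATG on either strand, the letters bound by the HMG box of SOX proteins such as SOX10, a regulator of myelin genes.
Mog: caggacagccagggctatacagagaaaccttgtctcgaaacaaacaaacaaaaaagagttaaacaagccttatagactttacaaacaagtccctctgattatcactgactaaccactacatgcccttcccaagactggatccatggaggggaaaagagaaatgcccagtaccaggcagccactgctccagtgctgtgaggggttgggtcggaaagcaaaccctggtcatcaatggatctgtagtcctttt
Mobp: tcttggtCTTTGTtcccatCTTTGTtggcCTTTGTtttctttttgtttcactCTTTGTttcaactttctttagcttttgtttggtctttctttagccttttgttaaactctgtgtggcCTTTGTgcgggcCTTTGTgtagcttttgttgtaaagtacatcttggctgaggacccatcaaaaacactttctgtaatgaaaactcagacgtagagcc
Opalin: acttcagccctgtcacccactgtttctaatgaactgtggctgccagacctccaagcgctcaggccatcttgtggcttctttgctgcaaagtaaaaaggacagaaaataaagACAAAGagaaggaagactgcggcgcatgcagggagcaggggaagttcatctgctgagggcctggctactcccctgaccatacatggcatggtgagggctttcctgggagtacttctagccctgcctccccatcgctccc
Hapln2: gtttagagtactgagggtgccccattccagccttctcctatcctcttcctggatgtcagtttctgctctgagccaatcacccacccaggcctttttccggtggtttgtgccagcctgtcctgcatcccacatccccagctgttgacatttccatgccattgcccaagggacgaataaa
Mobp held 6 matches in 215 bases, all of them CTTTGT, the reverse complement of ACAAAG. Opalin held 1 match in 250 bases, and Mog in 250 bases and Hapln2 in 178 bases held none. In the uncut window of 250 bases Hapln2 held 1 match, outside the bases printed. Over 32851 RefSeq windows of 250 bases upstream, 25.2% held at least 1 match and 4.12% held 2 or more. The window of Mobp was the only 1 of these with 6 or more. The motif was picked after the letters of these windows had been read, so the count for Mobp describes the sequence and is not a test. The windows were read for 8 of the 10 genes.

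Mobp, a structural protein of central myelin, had the most counts of the 4 oligodendrocyte genes in every library. Its level in normal nerve ran from 4.80 CPM (NN4) through a median of 193 to 956 CPM (NN6), and in plexiform neurofibroma from 7.88 CPM (PNF3) through a median of 49.6 to 442 CPM (PNF1). The groups overlapped over almost their whole range, and libraries of each group were found at both ends. NN1, NN2 and NN3 held 190, 294 and 197 CPM, while NN4 and NN5 held 4.80 and 14.3 CPM, so normal nerves differed from each other by 199-fold from the highest to the lowest of all 12 libraries.

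Mog, a glycoprotein on the outer face of central myelin, was also highest in NN6 and PNF1 and lowest in NN4, PNF3 and NN5. Normal nerve ran from 0.0695 CPM in NN4, which was a single count, through a median of 5.18 to 46.5 CPM in NN6. Plexiform neurofibroma ran from 0.356 CPM in PNF3 through a median of 1.93 to 15.8 CPM in PNF1. Mog and Mobp rose together: Pearson's r of log2 CPM was 0.98 over 12 libraries and 0.98 over the 11 without NN6. This is a description, since both genes were read in the same libraries.

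Hapln2, which links hyaluronan to proteoglycans at the nodes of Ranvier of central axons, had a median of 9.35 CPM in normal nerve (0.695 in NN4 to 27.5 in NN6). In plexiform neurofibroma the median was 1.91 CPM (0.153 in PNF3, which was 3 counts, to 8.66 in PNF1). The 2 groups overlapped. PNF1 was the second highest library for Mog and Mobp and the fourth for Hapln2, behind NN3 (11.8 CPM) and NN2.

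Opalin, a membrane protein of the late stages of oligodendrocyte maturation, was counted in few libraries. NN6 held 209 counts (13.9 CPM), PNF1 held 43 (2.20 CPM), NN3 held 8 and PNF4 held 3. NN1, NN2 and PNF6 held 1 count each, and NN4, NN5, PNF2, PNF3 and PNF5 held 0. Only NN6 and PNF1 were above 1 CPM, and the gene did not pass the filter on low counts. Its ratio to Mobp was not constant either: NN6 had 14.5 units of Opalin CPM per 1000 of Mobp, PNF1 had 4.98, and NN2, the library with the third highest Mobp, had 0.173.

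**Figure D1:**
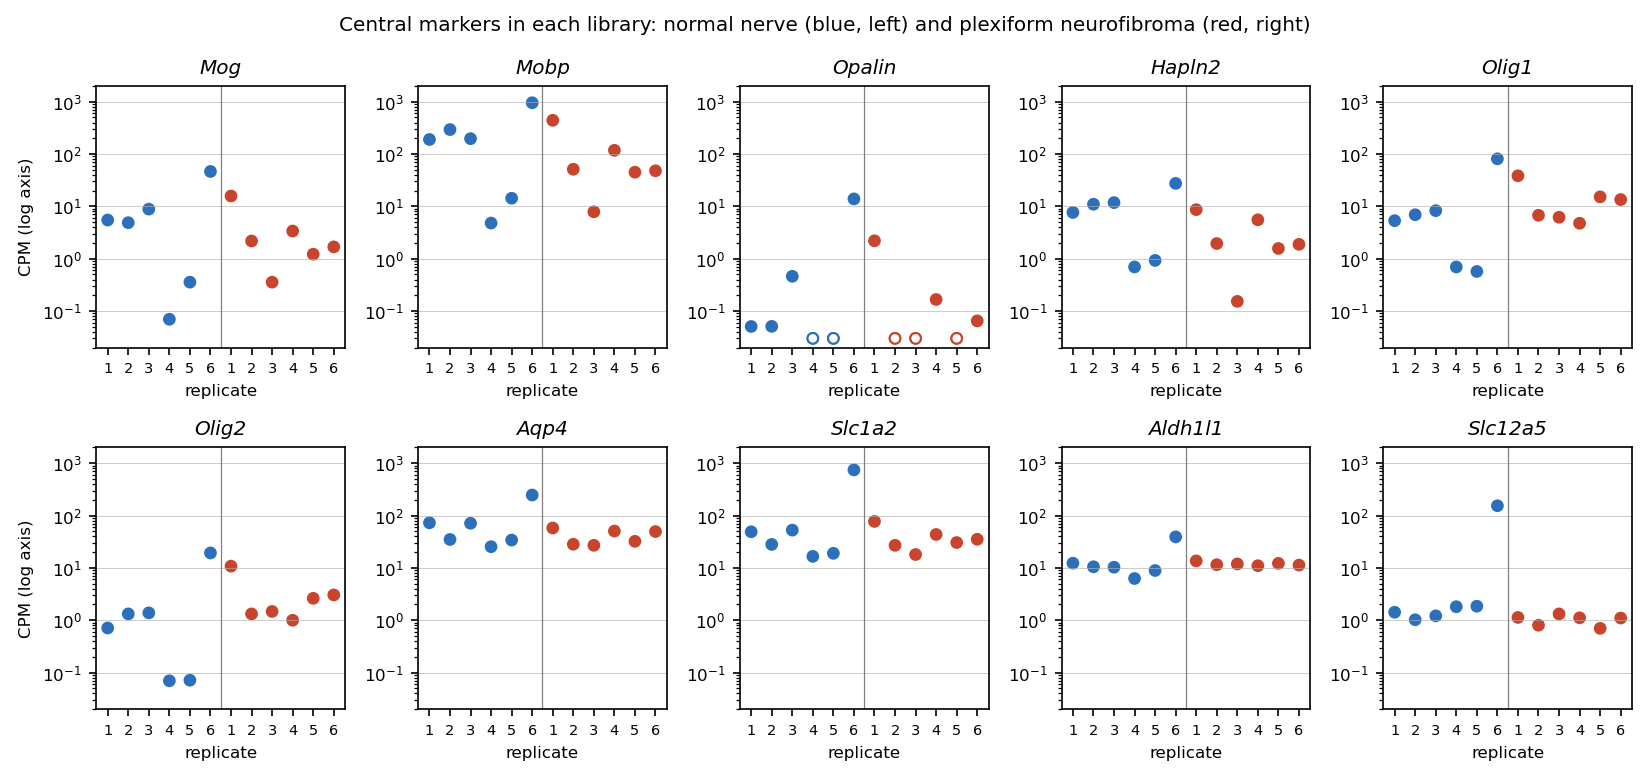
CPM of the 10 genes (log axis) in each library, 1 panel per gene, with normal nerve replicates 1 to 6 in blue on the left and plexiform neurofibroma replicates 1 to 6 in red on the right; open circles mark a count of 0. NN6 is the highest point in each of the 10 panels, PNF1 is next in 7 of them, and for Slc12a5 the other 11 libraries lie between 0.698 and 1.85 CPM.

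Olig1 and Olig2 encode transcription factors that set up the oligodendrocyte lineage and are made by its precursors as well as by mature cells. They are neighbours on chromosome 16 of GRCm38, Olig2 at 91225457 to 91228677 and Olig1 at 91269772 to 91271933, with 41.1 kb between them. Olig1 had a median of 6.12 CPM in normal nerve (0.570 in NN5 to 81.1 in NN6) and 10.1 CPM in plexiform neurofibroma (4.76 in PNF4 to 38.4 in PNF1). Olig2 had a median of 1.02 CPM in normal nerve (0.0695 in NN4 to 19.3 in NN6) and 2.05 CPM in plexiform neurofibroma (0.997 in PNF4 to 10.8 in PNF1). Both were lowest in NN4 and NN5, with 10 and 8 counts of Olig1 and 1 count of Olig2 in each, and all 6 tumour libraries lay above those 2.

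The pair did not follow the myelin genes in the tumours. PNF3, with 7 counts of Mog, held 122 counts of Olig1, and PNF5, with 21 counts of Mog, held 261. Olig1 CPM divided by Mog CPM, a ratio read across libraries only, was 0.972, 1.42, 0.935, 1.60 and 1.74 in NN1, NN2, NN3, NN5 and NN6. It was 2.43, 3.11, 17.4, 1.41, 12.4 and 8.0 in PNF1 to PNF6. NN4 gave 10, which rests on 1 count of Mog and 10 of Olig1. Of the 6 tumour ratios, 5 were thus above those of every normal nerve but NN4, and PNF4 was inside the normal range. Pearson's r between Olig1 and Olig2 was 0.99 over 12 libraries, against 0.81 between Olig1 and Mog, which fell to 0.72 over the 11 libraries without NN6.

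Gpr17 and Neu4, precursor genes picked for this comparison after their values were seen, are given as examples and do not stand for all genes of that stage. Gpr17, a receptor of differentiating precursors, had 5.04, 10.1 and 8.99 CPM in PNF3, PNF5 and PNF6. It had 5.27 and 4.10 CPM in PNF2 and PNF4, and 2.78 to 5.89 CPM in the normal nerves other than NN6. PNF2, PNF3 and PNF4 were thus inside that normal range. Neu4, a sialidase, had 1.32, 2.68 and 2.46 CPM in the same 3 tumours and 0 to 0.610 CPM in those normal nerves. In the edgeR fit, which includes NN6, neither Gpr17 nor Neu4 differed between the groups past the threshold (adjusted p = 0.663 and 0.623). Over the whole list of 12 other precursor genes, the same fit called 0 higher and 0 lower in the tumours, beside 10.0% and 8.63% of all genes tested. The median log2 fold change was -0.05 beside -0.02 over all 17236 genes tested.

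**Figure D2:**
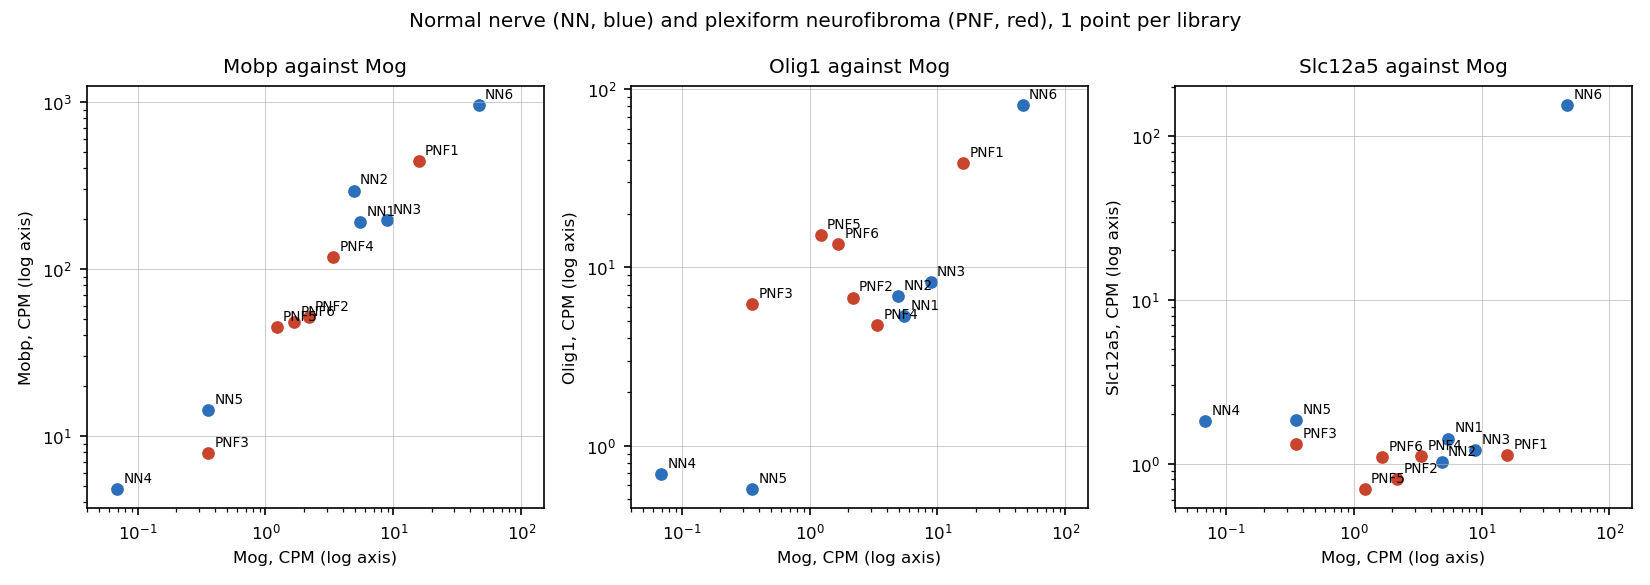
CPM of Mobp, Olig1 and Slc12a5 (vertical, log axes) against CPM of Mog (horizontal, log axis), 1 point per library, normal nerve (NN) in blue and plexiform neurofibroma (PNF) in red. Mobp lies along 1 line with Mog; PNF3, PNF5 and PNF6 lie above the line of the normal nerves for Olig1; NN6 alone is high for Slc12a5, at 154 CPM, while PNF1 is at 1.13 CPM.

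Aqp4, the water channel of astrocyte end feet, had counts in every library. Its level in normal nerve ran from 25.4 CPM (NN4) through a median of 53.0 to 247 CPM (NN6), and in plexiform neurofibroma from 27.0 CPM (PNF3) through a median of 40.9 to 57.9 CPM (PNF1). Outside NN6 the range was 25.4 to 72.7 CPM, so no library was near 0, unlike the myelin genes. Aqp4 is also made by cells outside the brain, among them skeletal muscle, and its source in the libraries was not tested.

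Slc1a2, the main glutamate transporter of astrocytes, ran from 16.6 CPM (NN4) through a median of 38.5 to 746 CPM (NN6) in normal nerve. In plexiform neurofibroma it ran from 18.0 CPM (PNF3) through a median of 32.9 to 77.3 CPM (PNF1). NN6 held 9.65 times the level of PNF1, the next highest. The ratio of Slc1a2 to Aqp4 CPM was 3.03 in NN6, 1.34 in PNF1 and 0.560 to 0.955 in the other 10 libraries. These 2 astrocyte genes therefore were not raised in equal proportion in NN6.

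Aldh1l1, a folate enzyme of astrocytes, varied least of the set. Normal nerve ran from 6.26 CPM (NN4) through a median of 10.4 to 39.1 CPM (NN6). Plexiform neurofibroma ran from 11 CPM (PNF4) through a median of 11.7 to 13.6 CPM (PNF1), and its coefficient of variation there was 7.94%, against 142% for Mog. PNF1, which held 9.38 times the median Mog of the other tumours, held 1.19 times their Aldh1l1, 1.80 times their Aqp4 and 2.53 times their Slc1a2. In NN6 the same 4 multiples over the other normal nerves were 9.53 for Mog, 3.79 for Aldh1l1, 7.07 for Aqp4 and 26.6 for Slc1a2. Mog thus stood out about equally in the 2 libraries, and the 3 astrocyte genes stood out more in NN6.

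Slc12a5 encodes KCC2, the potassium chloride cotransporter that keeps chloride low in mature central neurons, and lies on chromosome 2 of GRCm38 at 164960802 to 164999731. Sensory neurons of the ganglia are known to have little of it. NN6 held 2318 counts (154 CPM), and NN1 to NN5 held 28, 20, 21, 26 and 26 counts (1.02 to 1.85 CPM). PNF1 to PNF6 held 22, 14, 26, 20, 12 and 17 counts, with a median of 1.10 CPM (0.698 to 1.32). The level in NN6, for which the gene was picked, was 83.0 times the next highest library. PNF1, second for Mog and Mobp, ranked seventh for Slc12a5. Without NN6, Pearson's r between Slc12a5 and Mog over the 11 libraries was -0.43, against 0.49 with it.

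Expressed as a percentage of NN6, the genes differed widely within a library, also within a cell type. PNF1 held 46.2% of the Mobp of NN6, 33.9% of its Mog, 31.5% of its Hapln2, 15.9% of its Opalin, 47.3% of its Olig1, 55.9% of its Olig2, 34.9% of its Aldh1l1, 23.5% of its Aqp4, 10.4% of its Slc1a2 and 0.732% of its Slc12a5. NN2 held 30.7% of its Mobp, 10.5% of its Mog, 26.9% of its Aldh1l1, 14.2% of its Aqp4, 3.76% of its Slc1a2 and 0.661% of its Slc12a5. NN4 held 0.502% of its Mobp, 0.149% of its Mog, 16.0% of its Aldh1l1, 10.3% of its Aqp4, 2.23% of its Slc1a2 and 1.17% of its Slc12a5. NN4 thus kept more of the 3 astrocyte genes than of these 2 myelin genes, while in PNF1 the shares of the cell types overlapped. The 10 genes together made up 0.241% of all counts in NN6 and 0.0660% in PNF1, and 0.00520% to 0.0386% in the other 10 libraries.

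Levels of the 10 genes were ranked per kilobase of the longest annotated transcript. In NN6 the order of CPM per kilobase was Mobp (291), Slc1a2 (64.3), Aqp4 (48.8), Olig1 (37.5), Mog (27.3), Slc12a5 (25.5), Hapln2 (11.8), Aldh1l1 (9.37), Olig2 (7.61) and Opalin (4.97). Over the normal nerves the median order was Mobp (58.8), Aqp4 (10.5), Hapln2 (4.0), Slc1a2 (3.32), Mog (3.04), Olig1 (2.83), Aldh1l1 (2.49), Olig2 (0.402), Slc12a5 (0.268) and Opalin (0.0182). Over the tumours it was Mobp (15.1), Aqp4 (8.09), Olig1 (4.68), Slc1a2 (2.83), Aldh1l1 (2.79), Mog (1.13), Hapln2 (0.818), Olig2 (0.809), Slc12a5 (0.183) and Opalin (0.0116). Mobp led in each case. The library ranges of neighbours in the 2 median orders overlapped, except Olig2 and Slc12a5 in the tumours, so most of the ranks are not resolved.

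The group comparison asks whether tumours held more or less of these central transcripts than normal nerve. Of the 10 genes, 9 passed the filter on low counts, and 8 of these had a test. None of the 8 was called higher and none lower at an adjusted p under 0.05 (0 and 0), where 10.0% of all 17236 genes tested were called higher and 8.63% lower in plexiform neurofibroma. At an unadjusted p under 0.05 the edgeR count was also 0. DESeq2 gave 0 as well, but with no adjusted p for Olig1, Olig2 and Slc1a2, so its 0 is not read as covering these genes. The limma-voom fit with sample weights gave 0 adjusted and 2 unadjusted. The intervals were wide, so these data do not show that the groups were alike.

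In the edgeR fit of all 12 libraries, the log2 fold change of Mog was -1.42 (95% interval -3.88 to 1.05, adjusted p = 0.394), and that of Mobp was -1.22 (-3.67 to 1.24, adjusted p = 0.465). Hapln2 had -1.59 (-3.50 to 0.33, edgeR adjusted p = 0.217). Olig1 had -0.27 (-2.47 to 1.92) and Olig2 had -0.16 (-2.50 to 2.18), with edgeR adjusted p = 0.868 and 0.927. Among the astrocyte genes, Slc1a2 had -1.97 (-4.08 to 0.13, edgeR adjusted p = 0.165), Aqp4 had -0.98 (-2.10 to 0.14, adjusted p = 0.193) and Aldh1l1 had -0.29 (-1.09 to 0.51, adjusted p = 0.607). All 8 point estimates were below 0 in this fit, and NN6 was in the normal nerve group.

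Without NN6 no gene was called either. Olig1 moved to 1.67 ± 0.76 (SE, edgeR adjusted p = 0.126) and Olig2 to 2.19 ± 0.80 (edgeR adjusted p = 0.0622). Mog was then 0.05 ± 1.04, Mobp -0.24 ± 1.15 and Hapln2 -0.97 ± 0.88. Slc1a2 was 0.22 ± 0.42, Aqp4 -0.22 ± 0.32 and Aldh1l1 0.30 ± 0.14. With both NN6 and PNF1 left out, a comparison chosen after seeing the data, Mog was -1.17 ± 0.90, Mobp -1.38 ± 1.04 and Hapln2 -1.55 ± 0.88, while Olig1 was 1.07 ± 0.66 and Olig2 1.35 ± 0.61 (edgeR adjusted p = 0.222 to 0.359 for the 3 myelin genes and 0.256 and 0.125 for the others). Leaving out PNF1 alone gave -2.62 ± 1.15 for Mog and -2.34 ± 1.11 for Mobp (edgeR adjusted p = 0.136 and 0.166). The sign of 5 of the 8 estimates thus rested on NN6.

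**Figure D3:**
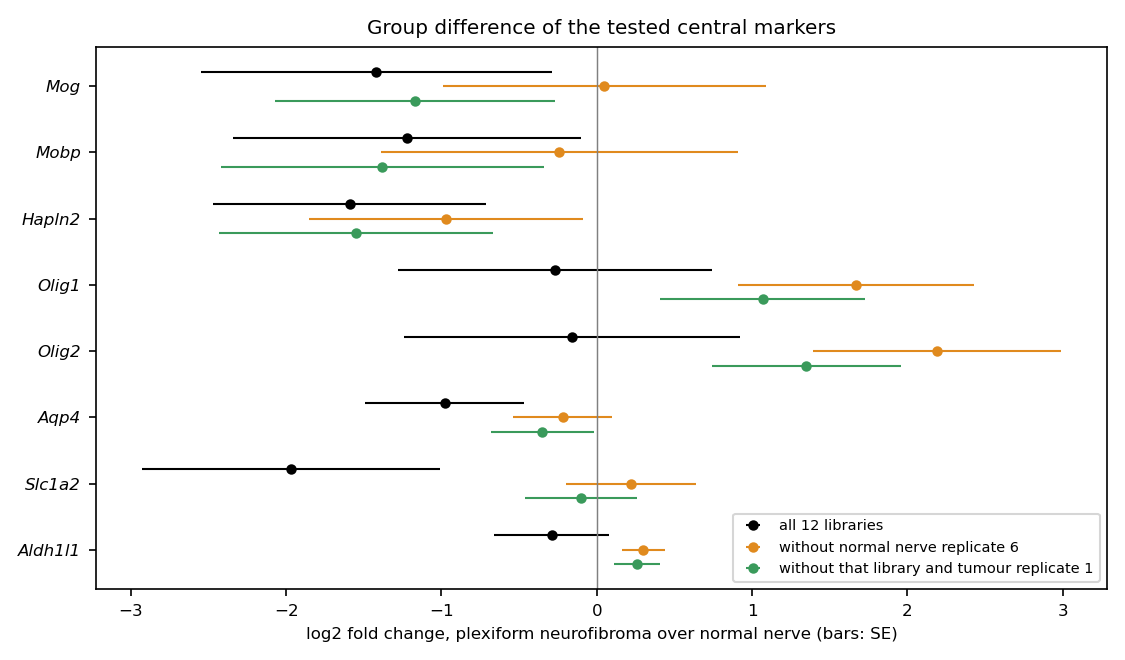
Log2 fold change of 8 genes, plexiform neurofibroma over normal nerve (horizontal axis; bars are standard errors), from edgeR with all 12 libraries (black), without NN6 (orange) and without NN6 and PNF1 (green). Olig1 and Olig2 sit below 0 in black and above 0 in orange and green, Mobp and Hapln2 sit below 0 in all 3 fits, and no estimate passed the adjusted threshold.

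Other genes of the same cell types were read in NN6 and PNF1. Counts of genes highest, lowest or at least 3-fold in a library are descriptions. No share over all genes is given to read them against. Among 18 other oligodendrocyte genes, 16 were highest in NN6. Of the list, 13 held at least 3 times the median of the other normal nerves in NN6, and 9 held at least 3 times the median of the other tumours in PNF1. In the group comparison 1 was called higher in plexiform neurofibroma and 0 lower. This was Apod, a lipid carrier that fibroblasts and Schwann cells also make, with 1112 ± 326 CPM in normal nerve and 3336 ± 1084 CPM in plexiform neurofibroma (SD, n = 6 libraries each, log2 fold change 1.59 ± 0.25, edgeR adjusted p = 0.00273). It was also not raised in NN6 (1239 CPM). The median log2 fold change of the list was -0.77, beside -0.02 over all genes. Of all genes tested, 10.0% were called higher and 8.63% lower, shares that also stand beside the calls in the lists below.

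Among 22 other astrocyte genes, 20 were highest in NN6, 15 held at least 3 times the median of the other normal nerves there, and 0 held 3 times the median of the other tumours in PNF1. Aldoc, a glycolytic enzyme with the highest mean CPM of the list, had 450 CPM in NN6 and 116 to 203 CPM in the other 11 libraries. Gpr37l1, a receptor of astrocytes and satellite glia, was the only gene of the list called, from 76.9 ± 30.1 CPM in normal nerve to 140 ± 25.6 CPM in the tumours (SD, n = 6 libraries each, log2 fold change 0.87 ± 0.22, edgeR adjusted p = 0.0187). The list median was -0.76.

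Central neuron genes other than Slc12a5 differed among themselves. Of 28, 16 held at least 3 times the median of the other normal nerves and more than 3 counts in NN6, and 11 did not pass the filter. Gad1, named after its values were seen, makes the inhibitory transmitter GABA and had 143 CPM in NN6 and 0.356 to 4.34 CPM elsewhere. Slc32a1, named on the same terms, loads GABA into vesicles and had 73.5 CPM in NN6 and 0 to 0.209 CPM elsewhere. Cplx2, a synaptic protein with the highest mean CPM of the list, had 481 CPM in NN6 and 213 to 362 CPM elsewhere, so it was present in every library. Slc6a17, a vesicular amino acid transporter, was called lower in the tumours, at 227 ± 39.5 CPM against 148 ± 15.8 CPM (SD, n = 6 libraries each, log2 fold change -0.62 ± 0.11, edgeR adjusted p = 0.00469). Grin1, a glutamate receptor subunit, was called lower as well (-0.36 ± 0.11, edgeR adjusted p = 0.0338). That call was lost on leaving out any of NN2, NN4, NN5, PNF1, PNF2, PNF4 and PNF6 (adjusted p up to 0.0817) and without NN6 and PNF1 together (edgeR adjusted p = 0.0563), and neither gene was raised in NN6 (194 CPM for Slc6a17 and 125 CPM for Grin1). No more than 4.27 CPM was summed over 6 brainstem motor neuron genes in any library, of which Slc5a7, a choline transporter, had the highest mean CPM (0.278 to 3.11 CPM).

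Sensory neuron genes went the other way in NN6. Of 22 genes, 18 were lowest in NN6 and none was highest there. Their median multiple in NN6 over the other normal nerves was 0.571. The 14 Schwann cell genes were also low there, with a median multiple of 0.564, 5 lowest and 1 highest in NN6. Summed CPM of these 14 genes was 3510 in NN6, above only NN2 (2816). Nefm, a neurofilament subunit with the highest mean CPM of the list, had 3084 CPM in NN6 and 3212 to 6046 CPM in the other libraries. Only Sncg, a synuclein of sensory neurons, was called (1053 ± 132 CPM in normal nerve and 1291 ± 84.2 CPM in plexiform neurofibroma, SD, n = 6 libraries each, edgeR adjusted p = 0.0431), and leaving out any library but NN2 and NN6 lost that call (edgeR adjusted p up to 0.0855).

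Genes shared by central and peripheral myelin did not follow the central markers. Of 12, 3 were highest in NN6 and 1 held at least 3 times the median of the other normal nerves there. Mbp, with the highest mean CPM, had 3934 CPM in NN6 and 1618 to 4889 CPM in the other normal nerves. S100b, a calcium binding protein of glia, was called higher in plexiform neurofibroma (880 ± 96.4 CPM to 1531 ± 170 CPM, SD, n = 6 libraries each, log2 fold change 0.80 ± 0.10, edgeR adjusted p = 0.00115), as were Gjc3, Mal and Sox10. Mal lost the call on leaving out any of NN3, NN4, NN5, PNF2, PNF4 and PNF6, and Sox10 without any of these or NN2 (edgeR adjusted p up to 0.0724 and 0.0772).

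Some Schwann cell genes rose in the tumours. Of 14 Schwann cell genes, 7 were called higher and 0 lower, beside 10.0% and 8.63% of all genes tested. Among the 7 were Pmp22, Ncmap, Gldn, Cdh19, Foxd3 and Dhh. The list median was 0.91 beside -0.02 over all genes. Pmp22, a protein of compact peripheral myelin, went from 1628 ± 679 CPM to 3872 ± 743 CPM (SD, n = 6 libraries each, log2 fold change 1.25 ± 0.24, edgeR adjusted p = 0.00576). Without NN6 and PNF1 its log2 fold change was 1.21 (edgeR adjusted p = 0.0106). Leaving out PNF2 or PNF4 lost the calls of Ncmap and Dhh, and leaving out NN3, NN4 or PNF6 also lost that of Ncmap (edgeR adjusted p up to 0.0661 and 0.0598).

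Other cell types that a cut nerve root could hold were read in the same way. Ptgds, an enzyme of the meninges and choroid plexus with the highest mean CPM of a list of 12, had 3803 CPM in NN6, 31.2 to 401 CPM in the other normal nerves, 357 CPM in PNF1 and 35.5 to 68.4 CPM in the other tumours. Of these 12 genes, 7 were highest in NN6, and 4 held at least 3 times the median of the other tumours in PNF1. Their summed CPM was 425 in PNF1, most of it Ptgds, and 62.9 to 96.5 in the other tumours. The median multiple of the list in PNF1 over the other tumours was 1.72, and Foxj1, Clic6 and Ttr were not raised there. Only some genes of the list, with Ptgds among them, thus moved with the oligodendrocyte genes in PNF1. Their part in the result was not tested. Of 8 microglial genes, 2 were highest in NN6 and 5 held at least 3 times the median of the other normal nerves there. Siglech and Cx3cr1 of that list were called higher in the tumours (log2 fold change 1.57 ± 0.51 and 1.49 ± 0.45, edgeR adjusted p = 0.0481 and 0.0371), and the call of Siglech was lost on leaving out any library but NN6 and PNF2, that of Cx3cr1 on leaving out any but NN6, PNF3 and PNF5 (edgeR adjusted p up to 0.101 and 0.0834). Without NN6 and PNF1 the log2 fold changes were 2.36 and 1.97 (edgeR adjusted p = 0.00166 and 0.00551). Of 7 satellite glia genes, Ednrb, Apoe and Cadm4 were called higher, with log2 fold changes of 0.61, 0.70 and 1.13 (edgeR adjusted p = 0.00971, 0.00516 and 0.00789).

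PNF1 also differed from the other tumours in muscle genes. All 10 skeletal muscle genes were highest there, and their summed CPM was 1876 in PNF1, 467 in NN3, 45.0 in NN4 and 5.80 to 10.4 in the other 9 libraries. Myh4, a myosin heavy chain of fast muscle, had 481 CPM in PNF1 and 98.8 CPM in NN3. NN6 had a muscle sum of 10.4 CPM, so the muscle genes did not move with the central markers there. The part of muscle in the Aqp4 level of PNF1 was not tested.

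**Figure D4:**
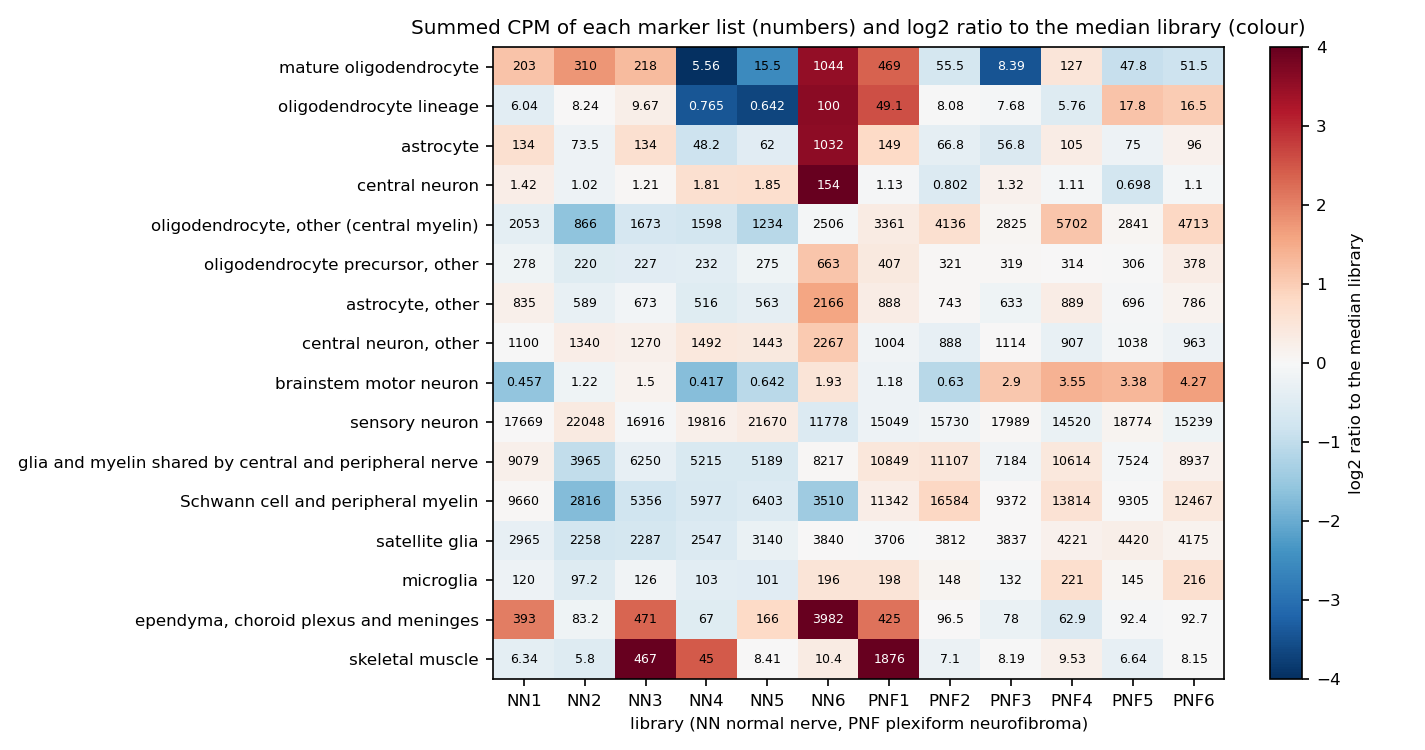
Summed CPM of 16 marker lists (rows; the number in each cell) in each library (columns, NN normal nerve, PNF plexiform neurofibroma), coloured by the log2 ratio to the median of the 12 libraries, with the colour scale ending at 4 in either direction. NN6 is high for the mature oligodendrocyte, lineage, precursor, astrocyte, central neuron and meninges lists. It is lowest for sensory neurons (11778 CPM) and above only NN2 for Schwann cells (3510 CPM). PNF1 is above the other tumours for mature oligodendrocytes, the lineage pair, the meninges list (425 CPM) and skeletal muscle (1876 CPM). The other oligodendrocyte list, which holds Apod, is highest in PNF4 (5702 CPM). NN4, NN5 and PNF3 are lowest for mature oligodendrocytes (5.56, 15.5 and 8.39 CPM).

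Most close relatives of the 10 genes were not raised in NN6. Of 19 such genes, 6 were highest in NN6 and 3 held at least 3 times the median of the other normal nerves there. Slc1a3, a second glutamate transporter of astrocytes, which was named after its values were seen, had 141 CPM in NN6, 64.8 CPM in PNF1 and 20.3 to 42.0 CPM in the other 10 libraries. Slc1a1 and Aqp9, named on the same terms, held 3.24 and 8.59 times the median of the other normal nerves in NN6, Aqp9 at only 1.19 CPM. Slc12a2 encodes NKCC1, the chloride importer that sensory neurons keep, and had 203 CPM in NN6 against 196 to 275 CPM in the other normal nerves. It was called higher in plexiform neurofibroma (235 ± 32.2 CPM to 344 ± 40.2 CPM, SD, n = 6 libraries each, log2 fold change 0.55 ± 0.10, edgeR adjusted p = 0.00559). Slc12a4, which encodes the cotransporter KCC1, was called higher (log2 fold change 0.71 ± 0.19, edgeR adjusted p = 0.0251), a call lost on leaving out any of NN4, NN5, PNF2, PNF4 and PNF6 (adjusted p up to 0.0596). Hapln4 and Hapln1, the link proteins of perineuronal matrix, and Aldh1l2, the mitochondrial relative of Aldh1l1, were called lower (log2 fold change -0.58, -0.50 and -0.49, edgeR adjusted p = 0.0142, 0.0332 and 0.0139). The call of Hapln1 was lost on leaving out any of NN2, NN4, NN5, PNF1, PNF2, PNF4 and PNF5 (edgeR adjusted p up to 0.0777).

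Genes whose log2 CPM was most like that of the central markers were ranked by Pearson's r over the 12 libraries among 13971 genes. For the mean of the 4 mature oligodendrocyte genes they were Ermn (r = 0.99), S1pr5 (0.98), Tmem88b (0.97), Pkp4 (0.97), Prr18 (0.97), Wscd1 (0.96), Enpp6 (0.96) and Prox1 (0.96). Ermn, a cytoskeletal protein of central myelin, had 62.8 CPM in NN6 and 0.973 to 31.7 CPM in the other 11 libraries. Of these 8 genes, 7 were among the first 8 again without NN6, so this likeness did not rest on that library.

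For the mean of the 3 astrocyte genes they were Nnat (r = 0.98), Psd2 (0.98), Prg4 (0.98), Gareml (0.97), Kcnn3 (0.97), Nadk2 (0.97), Ccdc24 (0.97) and Ak4 (0.97). For Slc12a5 they were Ptpn5 (r = 0.99), Slc18a2 (0.98), Chd3os (0.98), Caly (0.97), Hap1 (0.97), Adgrb2 (0.97), Aldh5a1 (0.97) and Ddc (0.97). Slc18a2 and Ddc, which load and make monoamine transmitters, had 124 and 98.3 CPM in NN6 and at most 13.3 and 3.26 CPM in any other library. Without NN6, 0 of the 8 astrocyte-like genes and 0 of the 8 genes like Slc12a5 were among the first 8. Spearman's rho with Slc12a5 over the 12 libraries ran from 0.13 for Ddc and 0.34 for Slc18a2 to 0.81 for Ptpn5. All these correlations share the same libraries and are descriptions.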

How the data were processed

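RNA-seq was analysed from 12 mouse trigeminal nerve samples, 6 per group, grouped by the tumour stage given in the labels. The authors counted reads into estimated counts (expected counts) per gene symbol and deposited them with no normalization; of the values, 84.1% to 86.5% per library were whole within 0.001. The submitters' processing notes name FastQC, STAR 2.4.2a, Salmon 0.60, DESeq2 and build mm10, with no role or order. Neither annotation nor strand setting is stated in what was read here, so near-identical or overlapping genes are uncertain. Counts were rounded and tested across all genes with edgeR 4.0.16 (R 4.3.3; TMM, filterByExpr, robust quasi-likelihood F test, Benjamini-Hochberg adjustment), with calls at an adjusted p under 0.05. Standard errors were taken from the F statistic and intervals from its t distribution. The procedure was tested on simulated data. Depth was 14160025 to 19989351 counts per library, and a limit of 3 counts covers counting error only. Positions are from GENCODE vM21, which matched 45187 of 47480 symbols. log2 CPM used a prior count of 2.

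The members and lists were chosen with earlier results of these data known. Named genes were the 10 members, genes of the 13 other lists that were called or highest in mean CPM, and the 8 genes most like each pattern with a mean CPM of at least 1. Alternatives were RLE and upper-quartile factors, other filters, DESeq2 1.42.0, limma 3.58.1 voom with sample weights, a transcript length correction (lowess span 0.3), CPM on total counts and leaving out each library. No library was identical to another, and no sample was left out of the main fit.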

Additional observations from a re-analysis of the deposited data

Results flagged for a closer look

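In 13 of 18 groups of 6 values (the genes other than Slc12a5, in each group of samples), 1 library lay so far from the others that its gap to the nearest exceeded Dixon's 95% critical value for the range. The nominal rate of about 1 in 20 such groups holds for normally distributed values, while these CPM values were strongly skewed. The flags are also not independent, since 8 were NN6 and 5 were PNF1. The genes were chosen with earlier results of these libraries known. The count of flags is therefore a description and cannot test chance. In normal nerve the library far from the others was NN6 for Mog (46.5 CPM), Mobp (956 CPM), Opalin (13.9 CPM), Olig1 (81.1 CPM), Olig2 (19.3 CPM), Aqp4 (247 CPM), Slc1a2 (746 CPM), and Aldh1l1 (39.1 CPM). NN6 also lay far from the others for Slc12a5 (154 CPM), which was picked for that value and is not counted. In plexiform neurofibroma the library far from the others was PNF1 for Mog (15.8 CPM), Mobp (442 CPM), Opalin (2.20 CPM), Olig1 (38.4 CPM) and Olig2 (10.8 CPM), and for none of the astrocyte genes or Slc12a5.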

How the results depend on the processing

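The count of tested genes called higher or lower was 0 in each of the 20 alternatives to the edgeR fit, though DESeq2 gave no adjusted p for Olig1, Olig2 and Slc1a2. Of 61 fold changes under alternatives other than leaving out 1 library, 52 kept their direction and 9 reversed. With limma-voom and sample weights the log2 fold changes that reversed were Mog 0.588, Mobp 0.412, Olig1 2.04, Olig2 2.52, Slc1a2 0.143 and Aldh1l1 0.282 (limma adjusted p 0.0607 to 0.849). Without NN6 and PNF1, added after seeing the data, they were Olig1 1.07, Olig2 1.35 and Aldh1l1 0.258. Leaving out 1 library gave ranges of -2.62 to 0.0513 for Mog, -0.864 to 1.67 for Olig1, -0.98 to 2.19 for Olig2, -2.27 to 0.22 for Slc1a2 and -0.432 to 0.297 for Aldh1l1, each highest without NN6. Olig2 was also above 0 without PNF2 (0.00325) and without PNF4 (0.0279). The other 89 of 96 such values kept their direction, among them all of Mobp, Hapln2 and Aqp4. All 20 median levels moved by less than 1 SD on total counts. Leaving out NN6 raised the calls over all genes from 3218 to 5031, and leaving out PNF4, NN5, PNF6 or PNF2 lowered them to 1893, 2098, 2156 and 2162. DESeq2 called 4253 genes and limma-voom 5585, and with no filter edgeR called 2266. The cause of these changes was not tested. Depth limits Opalin and Olig2, at 3 or fewer counts in 9 and 2 libraries, and Mog in NN4 (1 count) and Hapln2 in PNF3 (3 counts). No paired analysis was possible because the labels give no replicate numbers.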

Other observations

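The genes below come from those ranked most like Slc12a5 or the astrocyte mean over libraries that include NN6, so a high value in NN6 is how they were chosen. Hap1, a protein of neuronal transport, had 132 CPM there and 6.53 to 9.12 CPM in the other 11 libraries, and Ptpn5, a phosphatase of central neurons, had 47.5 CPM and 2.92 to 4.98 CPM. Nnat, a proteolipid of developing and adult brain, had 476 CPM in NN6 and 9.45 to 53.2 CPM elsewhere. Over the 28 central neuron genes other than Slc12a5, summed CPM was 2267 in NN6, 1100 to 1492 in the other normal nerves and 888 to 1114 in plexiform neurofibroma.

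Without NN6, the gene whose log2 CPM was most like the mean of the 3 astrocyte genes was Sall1 (Pearson's r = 0.96 over 11 libraries), a transcription factor of microglia and other cells, with 13.5 CPM in NN6 and 0.139 to 5.28 CPM elsewhere. It is given as a value, with no test.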
